A study of Arabidopsis thaliana with 4 samples.

Results

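*CKX6* and *ABCG14* encode proteins that act at separate steps in the life of cytokinins, the hormones that promote cell division and oppose auxin in the balance between root and shoot growth. Both genes were followed in *Arabidopsis thaliana* seedlings that had received auxin. They were chosen because their measured differences between IAA-treated and mock-treated seedlings had opposite signs, and they are 2 of the 13771 genes with a named probe set and 2 of the 22746 probe sets tested. All seedlings were of the Columbia wild type (WT), had grown for 5 d in the light and were then immersed for 2 h. The mock group lay in water and the IAA group in water holding IAA (indole-3-acetic acid, a natural auxin) at 10 µM. Each group was represented by 2 Affymetrix arrays, numbered here as the sample titles number them, which the methods of the study describe as independent biological replicates. Whole seedlings were used, so a transcript that was lower could reflect fewer cells of a type or less RNA per cell, which cannot be told apart here.

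Cytokinins are adenine derivatives with an isoprenoid side chain. Isopentenyltransferases start their synthesis, CYP735A enzymes hydroxylate the side chain to give *trans*-zeatin forms, and LOG enzymes release the active bases. The signal passes from histidine kinase receptors through phosphotransfer proteins to type-B response regulators, which activate transcription, among others of the type-A regulators that dampen the response. Cytokinin oxidases/dehydrogenases, the CKX family, end the signal irreversibly by cleaving the side chain, and *CKX6* encodes one of the 7 family members. *ABCG14* encodes a half-size ABC transporter needed for moving *trans*-zeatin-type cytokinins, made in the root, into the stream that carries them to the shoot.

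*CKX6* (AT3G63440, chromosome 3) was represented by 1 probe set, 251178_at. The value for each probe set is an RMA expression value on a linear scale, in arbitrary units. *CKX6* stood at 31.9 and 33.9 in the mock arrays and at 106 and 88.3 in the IAA arrays. Both IAA arrays were thus above both mock arrays, with a wide gap between the groups. The group means were 32.9 ± 1.47 (SD, n = 2) in mock-treated and 97.1 ± 12.3 (SD, n = 2) in IAA-treated seedlings, a log2 difference of 1.56, or 2.94-fold as measured. Both mock values were under 37.6, the highest value reached by any of 27 control probe sets for bacterial genes, and were read as near background. That highest value came from 1 of the 27, and the next reached 19.2, below both mock values. Against the limit of 37.6, which was chosen after values were seen, *CKX6* was on average (mean log2) at least 2.57-fold higher after IAA.

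The replicates of *CKX6* lay close together compared with the distance between the groups. They differed by 0.09 on the log2 scale in the mock group and by 0.26 in the IAA group, while over all probe sets the median absolute difference between replicates was 0.10 in the mock group and 0.13 in the IAA group. The mock replicates of *CKX6* were therefore near the middle of all probe sets in their spread, and its IAA replicates were further apart than in 79.4% of probe sets. Whichever IAA array was set against whichever mock array, the measured fold was between 2.60 and 3.32.

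*ABCG14* (AT1G31770, chromosome 1) was also represented by 1 probe set, 246580_at. It stood at 147 and 135 in the mock arrays and at 47.3 and 55.4 in the IAA arrays. Here both IAA arrays were below both mock arrays, and all 4 values were above the background limit. Its mean fell from 141 ± 8.04 (SD, n = 2) to 51.4 ± 5.71 (SD, n = 2), a log2 difference of -1.46, or 2.75-fold lower. The replicates differed by 0.12 in the mock group and by 0.23 in the IAA group on the log2 scale. The folds of single array pairs ran from 2.44 to 3.10.

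**Figure D1:**
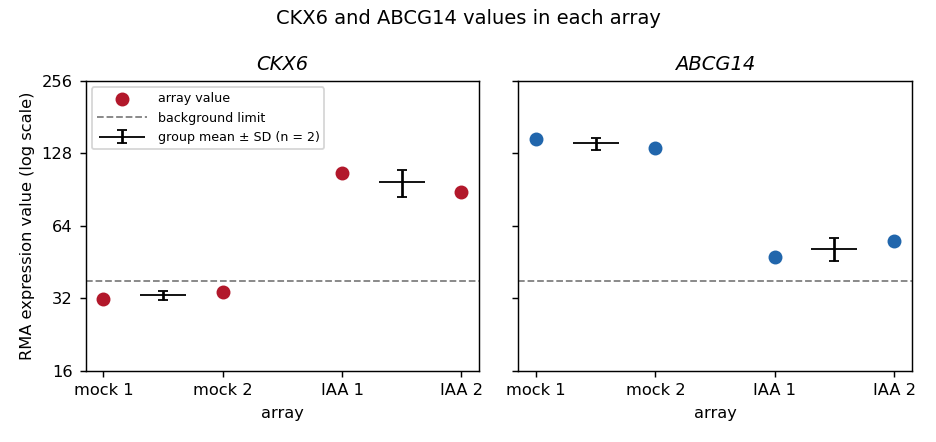
RMA expression value (log axis) of *CKX6* and *ABCG14* in each of the 4 arrays, with points for arrays, black bars for the group mean ± SD (n = 2) and a dashed line for the background limit of 37.6. *CKX6* rises from below the limit to 88.3 and above in the IAA arrays, and *ABCG14* falls from 135 or more to 55.4 or less.

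The levels of both genes cannot be ranked against each other, since different probe sets bind with different strength. In both genes IAA replicate 1 lay further from the mock group than IAA replicate 2. Over the called probe sets, that array was the more distant one in 142 of the 337 probe sets called increased (42.1%) and in 53 of the 85 called decreased (62.4%).

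A probe set was called when limma gave a Benjamini-Hochberg adjusted *p* below 0.10 and log odds of differential expression (B) above 0. That rule called 1.48% of all probe sets increased and 0.374% decreased. *CKX6* was among the former and *ABCG14* among the latter, but nothing was read from this, because the contrast that would be tested is the one that chose the genes, and no further replicates were at hand. As a description, *CKX6* ranked 100 among the 337 called increases by size, and *ABCG14* ranked 3 among the 85 called decreases. In 24.5% of all probe sets both IAA arrays were above both mock arrays, and in 29% both were below, so the lack of overlap alone was common. Over all probe sets the log2 difference had a median of -0.02, with the 1st percentile at -0.64 and the 99th at 1.01. Both genes were outside these percentiles.

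**Figure D2:**
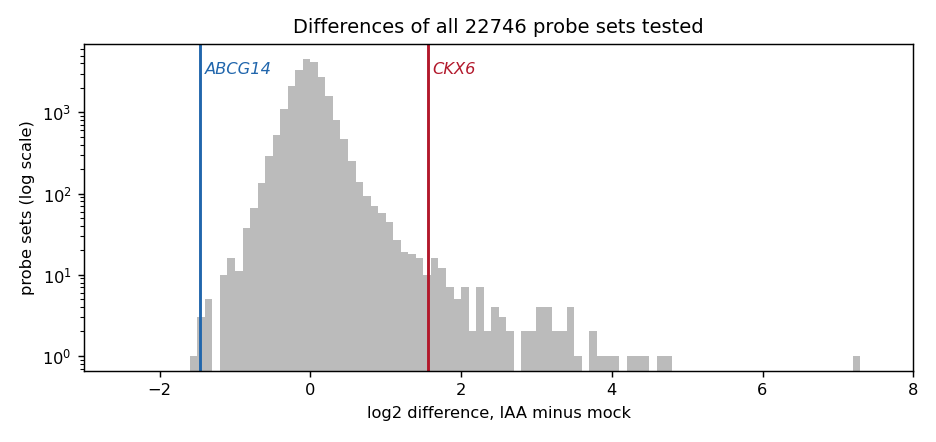
Number of probe sets (log axis) by log2 difference, IAA minus mock, for all 22746 probe sets tested, in steps of equal width. Vertical lines mark *ABCG14* at -1.46, near the lower end, and *CKX6* at 1.56, inside the longer upper tail.

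Both names rested on the lists of auxin-regulated transcripts in the study, which were drawn up on these arrays, since the platform table used here did not list either probe set. In the RefSeq annotation a long noncoding RNA gene, AT3G63445, overlaps 2234 of the 2380 bases of *CKX6* (93.9%). The table used gives no strand for it, and no probe set was named for it here. Whether it adds to the *CKX6* value was not tested. *ABCG14* shares 7 of its 3126 bases with the neighboring gene AT1G31772. Differences of this size were not seen in the neighboring genes. Of the 6 nearest genes with a named probe set around *CKX6*, 3 on each side, 0 were called by limma, and their log2 differences ran from -0.37 to 0.32. Around *ABCG14* 0 of 6 were called, with differences from -0.42 to 0.22. Of all probe sets 1.48% were called increased and 0.374% decreased, so 0 of 6 is near that share. Several of these neighbors were near background in both groups, more of them around *ABCG14* than around *CKX6*, so changes there could have been missed.

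To place both genes in their pathway, the other genes of cytokinin synthesis, activation, degradation, glucosylation, transport and response were taken from a list of 71 loci. Only 12 of these could be measured through a named probe set. By limma 1 of the 12 was called increased and 0 were called decreased, against 1.48% and 0.374% of all probe sets. The increased gene, *CRF3*, was named through the auxin lists, which were selected on these arrays, so its call was no independent evidence. That holds for its place in the next count too. At an unadjusted *p* below 0.05, a rule that 10.1% of all probe sets met as higher and 10.6% as lower after IAA, 3 of the 12 were higher and 1 was lower. The median log2 difference of the 12 was -0.10, against -0.02 over all probe sets, and the 11 that were not called lay between -0.46 and 0.36. The intervals of those 11 reached from -0.94 to 0.61, and 7 of the 12 were near background in at least 1 group (5 in both), so moderate changes could have been missed.

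The other 6 *CKX* genes had no named probe set here, so the family could not be compared with *CKX6*. The same held for the 3 receptors, the 6 phosphotransfer proteins and the 9 *LOG* genes. In synthesis, 1 of 11 genes was measured. This was *CYP735A2*, which makes the *trans*-zeatin forms that ABCG14 carries, and it read 26.5 and 24.8 in the mock arrays and 26.4 and 20.4 in the IAA arrays. These values overlapped and were all near background, and the log2 difference of -0.14 (95% interval -0.50 to 0.21) was not called.

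Glucosylation is the other way in which cytokinins are inactivated, and 3 of its 5 listed genes were measured. *UGT76C2*, which N-glucosylates cytokinin bases, read 69.6 and 75.9 in the mock arrays and 97.8 and 89.4 in the IAA arrays. The groups did not overlap and the log2 difference was 0.36 (95% interval 0.11 to 0.61), but limma's adjusted *p* was 0.135 and it was not called. Its close relative *UGT76C1* read 115 and 121 against 143 and 149, again without overlap, at 0.30 (95% interval 0.08 to 0.53) and an adjusted *p* of 0.149 by limma. *UGT73C1*, which adds glucose to the side chain, had overlapping values and a log2 difference of -0.12. The differences of both N-glucosyltransferases had the sign of that of *CKX6*. Over the 12 measured cytokinin genes, both IAA arrays were above both mock arrays in 3 and below them in 3. Of all probe sets 24.5% were above and 29% below in this way, so the lack of overlap was near that share.

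Among 8 other listed transport genes only *AZG1*, a purine transporter that also moves cytokinins, was measured. It read 57.0 and 49.0 in the mock arrays and 46.8 and 53.2 in the IAA arrays. The groups overlapped, at a log2 difference of -0.08 (95% interval -0.38 to 0.21).

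Of the genes that report the cytokinin response, 5 of 10 type-A response regulators were measured and 0 were called in either direction. Over all probe sets 1.48% were called increased and 0.374% decreased, so 0 of 5 is near that share. Near background in at least 1 group were 4 of the 5. *ARR6* read 41.0 and 50.5 in the mock arrays and 36.4 and 32.5 in the IAA arrays. Both IAA arrays were below both mock arrays and also under the background limit, against which *ARR6* was on average at least 1.21-fold lower. The measured log2 difference of -0.40 (95% interval -0.73 to -0.07) had an adjusted *p* of 0.179 by limma. *ARR15* read 22.3 and 23.1 against 13.5 and 20.2, all near background, at -0.46 (95% interval -0.94 to 0.02). The values of *ARR7* (52.4 and 54.4 against 48.6 and 64.3), *ARR3* and *ARR16* overlapped between the groups, with log2 differences of 0.07, 0.05 and -0.17. The type-B regulator *ARR18*, 1 of 7 listed, was near background in all arrays, at -0.24 (95% interval -0.53 to 0.05).

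The called gene of the list was *CRF3*, a cytokinin response factor of the AP2/ERF family and 1 of 6 listed. It read 19.7 and 22.8 in the mock arrays and 37.1 and 41.8 in the IAA arrays. The groups did not overlap, and the log2 difference was 0.89 ± 0.12 (SE), with an adjusted *p* of 0.0256 by limma. Its mock values and IAA replicate 1 were under the background limit, so the size of its difference is uncertain. *CRF3* was named through the auxin lists as well, so its direction was not independent evidence, and the call was lost in 6 of 9 alternative treatments of the data.

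**Figure D3:**
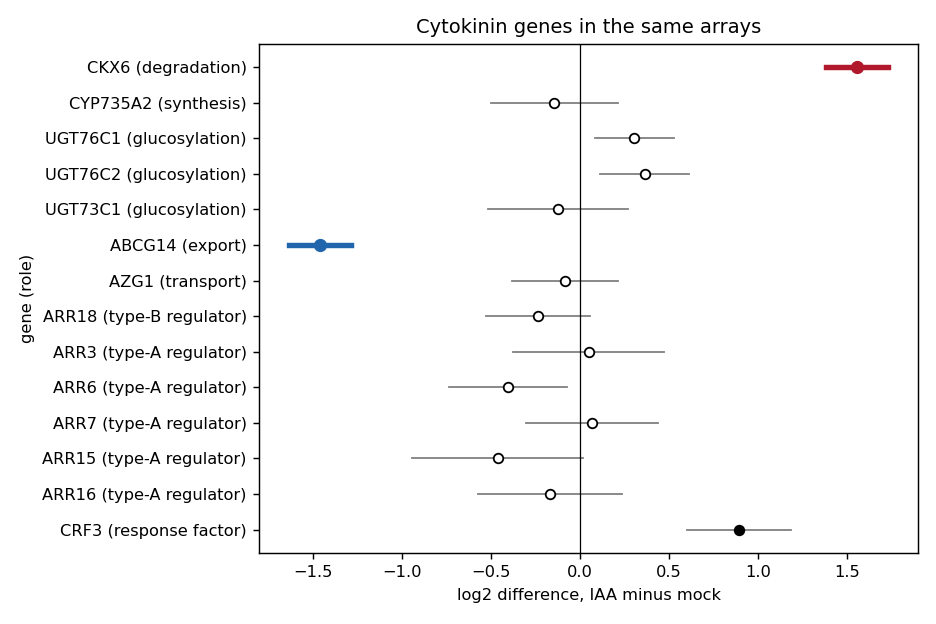
Log2 difference, IAA minus mock, of *CKX6*, *ABCG14* and the 12 other measured cytokinin genes. For *CKX6* (red) and *ABCG14* (blue) the thick bar spans the differences of single array pairs, and for the others the thin bar is the 95% interval from limma, with a filled point for the called gene *CRF3*. *CKX6* and *ABCG14* lie outside the range of -0.46 to 0.89 of the other genes, on opposite sides.

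*ABCG14* was next set beside its own protein family. Of the other 27 half-size transporters of subfamily G, only *ABCG19* was measured. It read 123 and 129 in the mock arrays and 152 and 126 in the IAA arrays, so the groups overlapped, and the log2 difference of 0.14 (95% interval -0.16 to 0.43) was not called by limma. Over the ABC family in the wider sense, 7 measured genes other than *ABCG14* carried an ABC subfamily symbol in RefSeq, a set put together after values were seen and given without a test. *ABCG35*, a full-size transporter of subfamily G, read 225 and 252 in the mock arrays and 117 and 95.1 in the IAA arrays. *ABCG29*, also full-size and known as an exporter of monolignols, read 124 and 128 against 68.4 and 71.1. Neither gene had overlapping groups, and their log2 differences were -1.17 and -0.86, smaller in size than that of *ABCG14*. Among subfamily C members, *ABCC13* was at -0.78 and *ABCC8* at -0.64, without overlap. All 4 of these genes were named through the auxin lists, which held only transcripts selected on these arrays. Their direction was therefore not independent evidence. The other 3, *ABCC12*, *ABCG19* and the auxin exporter gene *ABCB1*, were named through another source and were at -0.26, 0.14 and 0.10. *ABCC12* was also lower without overlap, at 57.0 and 47.4 against 40.7 and 46.6, while *ABCG19* and *ABCB1* overlapped. Of all probe sets, 29% had both IAA arrays below both mock arrays.

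Since *ABCG14* is known as a gene of the root vasculature, markers of tissues were read beside it. None of 5 vascular markers had a named probe set here. Of 7 root markers 4 were measured, and limma called 2 of them decreased, against 0.374% of all probe sets. *TIP2;3*, a root aquaporin gene, read 692 and 769 in the mock arrays and 352 and 316 in the IAA arrays. *CASP5*, a gene of the endodermal Casparian strip, read 106 and 105 against 58.4 and 48.3. Both were lower in both IAA arrays, with log2 differences of -1.13 and -0.99. The former was named through the auxin lists and the latter through the study's lists of brassinosteroid-regulated transcripts. The direction of the former was thus fixed by the naming, so its place in this count and the next was not independent evidence. The root hair gene *EXPA7* was also lower in both IAA arrays, at -0.40 (95% interval -0.63 to -0.18). Its adjusted *p* of 0.092 by limma met the rule but its B of -2.30 did not, so it was not called. In this way 3 of the 4 were lower without overlap, the aquaporin gene among them, against 29% of all probe sets. *PYK10*, a beta-glucosidase gene abundant in roots, overlapped between the groups at -0.09 and was not called. The summed level of the 4 root markers was 3337 to 3939 in the mock arrays and 2785 to 3215 in the IAA arrays. *PYK10* gave most of these sums, and none of the 4 was at 0. The part of *TIP2;3* and *CASP5*, or of the cells they mark, in the difference of *ABCG14* was not tested.

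The only photosynthesis marker measured, *PRK*, was at -0.20 (95% interval -0.43 to 0.03) and was not called. The 3 measured touch-responsive genes of 4 listed, *TCH4*, *ERF6* and *WRKY33*, were all called increased, by 0.74 to 1.50 on the log2 scale, against 1.48% of all probe sets. *ERF6* and *WRKY33* were named through the auxin lists, so their direction was fixed by the naming and the count was not independent evidence. *TCH4* was named through the study's lists of brassinosteroid-regulated transcripts. Both groups had been immersed. The summed level of the 3 touch-responsive genes went from between 2660 and 2897 to between 4666 and 5115, and *TCH4* gave most of it. Their part in the difference of *CKX6* was not tested. The auxin-induced genes *GH3.3*, *IAA1*, *IAA5* and *IAA19*, read to check the labels, were called increased in 4 of 4 cases, by 3.22 to 7.21 on the log2 scale. Of these only *GH3.3* was named by the platform table and serves as a check, since the other 3 were named through the auxin lists.

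Genes with the profile most like each of both were then looked for among 13919 probe sets that name 1 gene, by the Euclidean distance of log2 values centered on their own mean over the 4 arrays. Because likeness to *CKX6* or *ABCG14* fixes the direction and also selects for the same order of replicates, no test is given. The gene nearest to *CKX6* was AT2G41820, encoding a leucine-rich repeat receptor-like kinase, at a distance of 0.12. It read 25.2 and 29.8 in the mock arrays and 90.8 and 76.4 in the IAA arrays, and like *CKX6* it was lowest in mock replicate 1 and highest in IAA replicate 1. Next came *ZF14*, encoding a MATE-type transporter, at 88.6 and 92.5 against 306 and 272, and *IAA13*, encoding an Aux/IAA repressor of auxin signaling, at 344 and 321 against 1060 and 924. AT4G12410, a *SAUR* gene, and *CYP78A7*, a cytochrome P450 gene, completed the 5. Both were near background in the mock arrays, as AT2G41820 was. Against the limit they were on average at least 1.11-fold and 1.85-fold higher after IAA. In 4 of the 5, *IAA13* being the exception, mock replicate 1 was the lowest array, and in all 5 IAA replicate 1 was the highest.

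The gene nearest to *ABCG14* was *CLE2*, encoding a CLE signaling peptide, at a distance of 0.14. It read 202 and 183 in the mock arrays and 69.1 and 70.2 in the IAA arrays, with a log2 difference of -1.47 against -1.46 for *ABCG14*. AT5G15180, a peroxidase gene, followed at a distance of 0.18, with 143 and 144 in the mock arrays and 54.3 and 62.5 in the IAA arrays. The remaining 3 were further away, at 0.28 to 0.33. They were AT2G16980, a gene of the major facilitator superfamily, *BBX14*, a B-box zinc finger gene, and AT4G01140, which was near background in the IAA arrays, and their measured log2 differences of -1.13 to -1.19 were smaller in size than that of *ABCG14*. The neighbors of *CKX6* in profile were thus closer to it than most of those of *ABCG14* were to theirs.

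**Figure D4:**
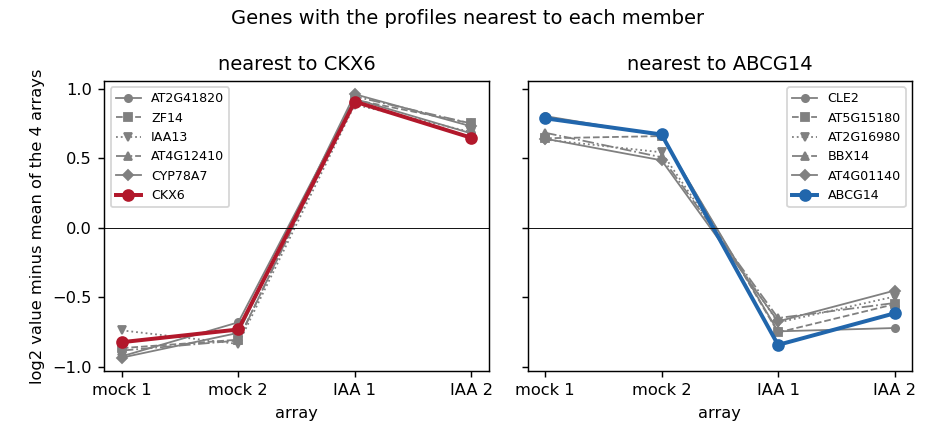
Log2 value minus the mean of the 4 arrays, by array, for *CKX6* (red) and *ABCG14* (blue), each with the 5 genes nearest in profile (grey, 1 symbol per gene). The genes near *CKX6* lie within 0.15 of it in distance, and those near *ABCG14* within 0.33.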

How the data were processed

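RNA of 2 mock-treated and 2 IAA-treated seedling samples was measured. The authors deposited 1 intensity value per probe set, computed with the rma function of affy (background correction, quantile normalization, median polish). The values were judged from their range to be on a linear scale. Which arrays were normalized together is not given in the sources. Quantile normalization would hide a shift of most transcripts. The array medians were 62.1, 63.4, 62.3 and 63.5. Depth does not apply to arrays, and 2 arrays per group limit the precision.

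Values were taken to log2 without a pseudocount, and 64 of 22810 probe sets, the controls, were left out. The remainder were fitted with limma 3.58.1 in R 4.3.3 (treatment the only term, 3.66 prior degrees of freedom), with Benjamini-Hochberg adjustment over all of them and the call rule of the study's methods. Intervals are limma's 95% intervals. The pipeline was tested on simulated data.

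The platform's table named 13513 probe sets, the BR lists of the study (used for identity only) 335 and its auxin lists 150. Another 8245 had no name here and 503 had several. Names and overlaps are from RefSeq, assembly TAIR10.1. The background limit of 37.6 came from 1 control probe set, whose lowest value was 31.1, and the next reached 19.2.

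The genes, gene lists and rules were chosen with earlier results of these data known. Named were *CKX6*, *ABCG14*, measured *CKX* genes, called genes of each role group or else the one with the greatest difference, and 5 nearest profiles each. Since few were measured, all 12 cytokinin genes are given. A planned search for promoter motifs was not run, as no sequences were used here. Alternatives were other pseudocounts, median centering, no dim probe sets, leaving out each array, a replicate block and other call rules.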

Additional observations from a re-analysis of the deposited data

How the results depend on the processing

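*CKX6* and *ABCG14* kept their direction under every alternative run. Leaving out 1 array gave 1.43 to 1.69 for *CKX6* and -1.57 to -1.35 for *ABCG14*. Pseudocounts of 16 and 64, which shrink the differences of dim probe sets by construction, gave 1.21 and 0.73 for *CKX6* and -1.22 and -0.83 for *ABCG14*. Raising values under the background limit to it, an alternative added after seeing the data, gave 1.36 for *CKX6*.

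The counts of calls moved more. Leaving out 1 array gave 158 to 397 increased probe sets, with 158 without mock replicate 1 and 196 without mock replicate 2, against 337. It gave 20 to 162 decreased ones, with 21 and 20 without mock replicates 1 and 2 and 162 without IAA replicate 2, against 85. Without the rule on B there were 880 and 513. The replicate block, which treats equal replicate numbers as paired, gave 145 and 10. Whether equal numbers mark paired arrays is not known. The replicate differences of mock and IAA correlated at -0.19 over probe sets, which cannot settle it. The crossed block, added after seeing the data, gave 299 and 86.

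The single increased gene of the cytokinin list, *CRF3*, was lost (count 0) with pseudocounts of 16 and 64, with the replicate block, without mock replicate 1 or 2 and without IAA replicate 2 (range 0 to 1). Without IAA replicate 2, *ARR15* was called decreased (range 0 to 1). The block changed no other call of the list.

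Some uncalled differences changed sign when 1 array was left out, running from -0.33 to 0.044 for *CYP735A2*, -0.32 to 0.076 for *UGT73C1*, -0.19 to 0.026 for *AZG1*, -0.15 to 0.24 for *ARR3*, -0.14 to 0.27 for *ARR7* and -0.38 to 0.037 for *ARR16*. The causes were not tested. Signal near background limits *CKX6* in the mock group and 7 of the 12 cytokinin genes, 5 of them in both groups.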
